A study of Mus musculus with 12 samples.

Results

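Arachidonic acid, a fatty acid released from membranes, is turned into prostaglandins by cyclooxygenases and into leukotrienes and hydroxy fatty acids by lipoxygenases. The 10 genes described here were chosen by symbol from a table of 21247 genes, because they encode these enzymes and their nearest partners. They are the cyclooxygenases *Ptgs1* and *Ptgs2*, the prostaglandin synthases *Ptges* and *Ptgds*, the leukotriene genes *Alox5*, *Alox5ap* and *Ltc4s*, and the lipoxygenases *Alox8*, *Alox12* and *Alox15*. All 10 were listed in the table, and all 10 had at least 10 counts summed over the libraries, the minimum for testing. The rule that picks them uses symbols and no value, but it was written with earlier results of these data known.

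RNA-seq was made from biopsies of periocular skin, the skin around the eye, of BALB/c mice aged 6 weeks. The 4 libraries called ft/ft replicates 1 to 4 came from mice homozygous for the flaky tail mutation, which arose spontaneously and leaves filaggrin without function, bred free of the ma mutation in *Tmem79*. The 4 ft/ftMyD88-/- libraries came from the same filaggrin-deficient background crossed to MyD88-/- mice, which lack the adaptor protein of toll-like and IL-1 family receptors, with no restriction to a cell type named. The comparison asks how these genes differ between filaggrin-deficient skin with and without MyD88, and wild-type libraries were not analysed here. Per the study, all ft/ftMyD88-/- mice had inflamed periocular skin by 6 weeks, with a thickened epidermis, while ft/ft mice showed no visible inflammation. Loss of MyD88 and the inflamed state of the skin therefore cannot be told apart in these libraries. Libraries were taken as separate mice, as the study describes them, while the labels number replicates without naming animals.

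Cyclooxygenase-1, the product of *Ptgs1*, is present in many resting tissues, while cyclooxygenase-2, the product of *Ptgs2*, is made on stimulation in keratinocytes, fibroblasts and myeloid cells. Both make the same intermediate, which terminal synthases turn into single prostaglandins. In the epidermis, lipoxygenases act mostly on lipids of the water barrier, and in leukocytes 5-lipoxygenase starts the synthesis of leukotrienes.

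Promoter sequences are shown for *Ptgs1*, *Ptgs2* and *Alox12*, the 3 genes whose counts differed between the groups. RefSeq windows of GRCm38.p6 were given for 8 of the 10 genes, all but *Alox5ap* and *Alox15*, and each was read from 250 bases before to 30 bases after the start site. The windows below lie at chr2:36230176-36230455 on the + strand (*Ptgs1*), chr1:150099781-150100060 on the + strand (*Ptgs2*) and chr11:70255341-70255620 on the - strand (*Alox12*), written 5′ to 3′ with the letters of any searched motif in capitals.
Ptgs1: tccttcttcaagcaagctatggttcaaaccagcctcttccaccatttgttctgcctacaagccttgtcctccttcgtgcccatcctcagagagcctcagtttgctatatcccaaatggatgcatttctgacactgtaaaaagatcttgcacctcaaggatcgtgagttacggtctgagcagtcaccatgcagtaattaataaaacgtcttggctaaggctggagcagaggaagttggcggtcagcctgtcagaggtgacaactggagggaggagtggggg
Ptgs2: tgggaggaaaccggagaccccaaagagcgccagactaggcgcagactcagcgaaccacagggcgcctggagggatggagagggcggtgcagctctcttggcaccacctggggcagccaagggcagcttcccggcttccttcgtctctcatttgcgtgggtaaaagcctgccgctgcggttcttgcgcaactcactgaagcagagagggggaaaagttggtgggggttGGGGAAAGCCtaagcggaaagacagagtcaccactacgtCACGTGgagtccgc
Alox12: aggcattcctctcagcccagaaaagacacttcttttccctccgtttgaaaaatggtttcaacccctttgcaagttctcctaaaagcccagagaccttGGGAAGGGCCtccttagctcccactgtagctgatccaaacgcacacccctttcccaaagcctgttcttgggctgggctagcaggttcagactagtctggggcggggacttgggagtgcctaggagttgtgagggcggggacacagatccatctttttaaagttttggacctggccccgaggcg

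The search covered 6 motifs on both strands, and each share below is that of 32851 windows of the same 280 bases. They were TATAAA (the TATA box, in 13.1%), the NF-kB type (GGG and CC with 5 bases of any kind between them, in 48.9%), TGACGTCA (the cyclic AMP response element, in 1.74%), TGANTCA (AP-1, in 7.46%), AGGTCA (a nuclear receptor repeat unit, in 15.3%) and CACGTG (an E-box, in 6.79%). The *Ptgs2* window held GGGGAAAGCC at position -23 from the start site and CACGTG at position 17. The *Alox12* window held GGGAAGGGCC at position -153, and the *Ptgs1* window held none of the 6 motifs. Among the other windows, *Alox5* held 3 copies of the NF-kB type, *Ptges* held 1, *Ptgds* held 1 next to a copy of the AP-1 motif, and *Alox8* and *Ltc4s* held none. These are matches of letters in a short window, and binding was not measured.

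The libraries held 18941705 to 29255129 counts in ft/ft and 15802957 to 27037997 in ft/ftMyD88-/-. *Xist*, a transcript of the inactive X, had 1 count over the ft/ft libraries together and 34.6 to 66.8 CPM (counts scaled to a common library size by the TMM method of edgeR) in ft/ftMyD88-/-. The Y-linked *Ddx3y*, *Eif2s3y*, *Uty* and *Kdm5d* ranged from 13.8 to 73.2 CPM in ft/ft and reached at most 0.482 CPM in ft/ftMyD88-/-. The labels give female mice, and the genotype and the sex shown by these genes cannot be told apart in any comparison below. *Myd88* itself stood at 30.7 ± 4.74 CPM (SD, n = 4) in ft/ft and 41.2 ± 7.29 in ft/ftMyD88-/-, a log2 fold change of 0.42 (edgeR adjusted p = 0.0484). The count of a gene does not tell whether 1 of its exons was deleted, so these values could not check the genotypes, and the group names are those of the labels. The epidermal keratins *Krt5* and *Krt14* and the other basal keratinocyte markers summed to at least 9490 CPM in every library. The 5 skeletal muscle markers summed to 7070 to 9540 CPM in ft/ft and 2750 to 5100 in ft/ftMyD88-/-, so muscle RNA was present in every library.

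Of the 10 enzyme genes, *Ptgs2* was higher in ft/ftMyD88-/- and *Ptgs1* and *Alox12* were lower (edgeR quasi-likelihood test with Benjamini-Hochberg adjustment over 20454 genes, adjusted p under 0.05). The other 7 did not pass that threshold. The same test called 23.3% of all genes tested, 10.9% higher and 12.3% lower, so 3 of 10 is close to the share of genes in general. These calls were 2239 genes higher and 2525 lower, and with scaling by library size alone they were 4638 and 1326. Without ft/ft replicate 4 they were 1464 and 1882. The count of members higher ran from 1 to 4 with single libraries left out. The median log2 fold change of the 10 genes, given throughout as ft/ftMyD88-/- over ft/ft, was 0.21, against 0.01 over all genes tested. The libraries of the groups did not overlap for the same 3 genes, 1 higher and 2 lower, and did not overlap for 26.7% of all genes tested.

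**Figure D1:**
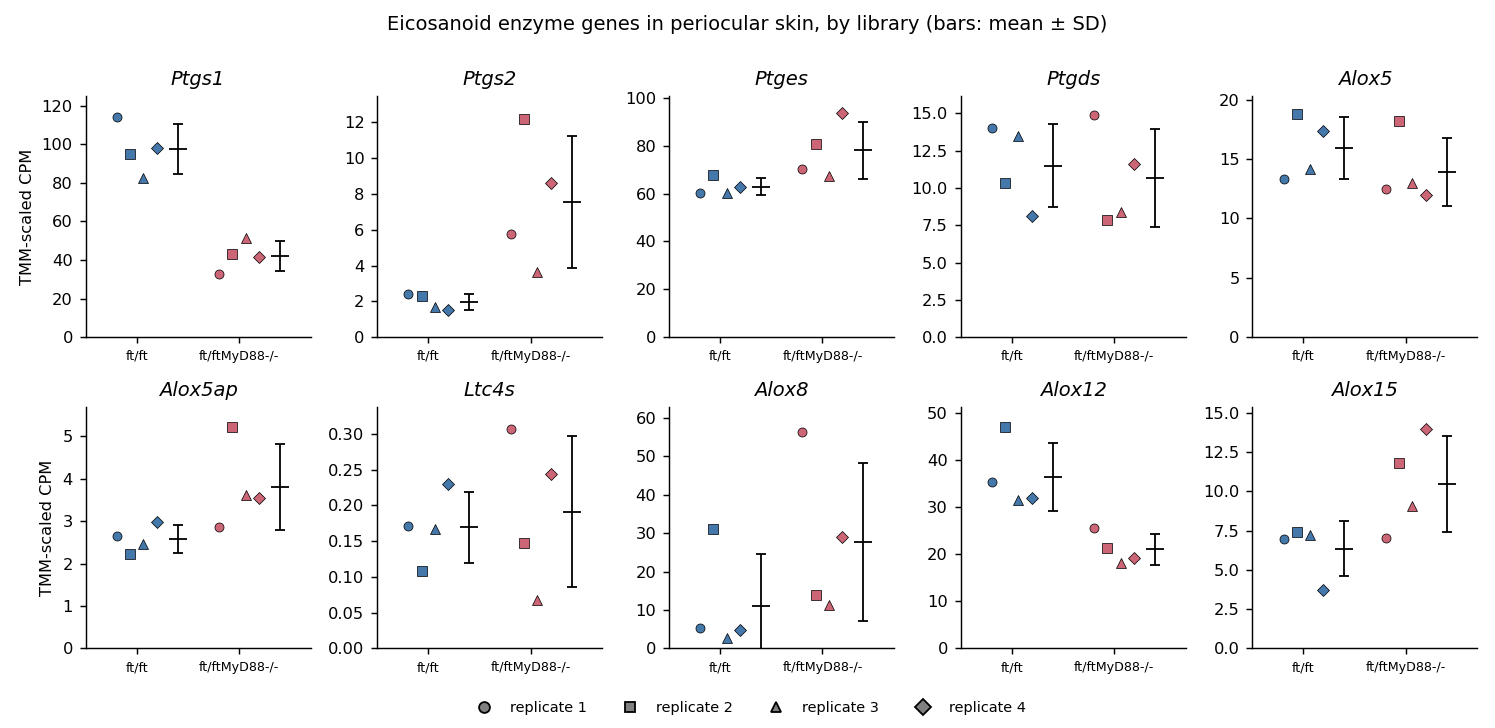
Level of each of the 10 enzyme genes in every library, as TMM-scaled CPM on a linear axis from 0, with blue for ft/ft, red for ft/ftMyD88-/-, 1 symbol per replicate and bars for the mean ± SD (the *Alox8* bar of ft/ft runs below 0 and is clipped there). *Ptgs1*, *Ptgs2* and *Alox12* are the genes whose groups do not overlap, and *Alox8* has the widest spread among libraries of 1 group relative to its mean.

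*Ptgs1*, the cyclooxygenase of resting tissue, lies at chr2:36230426-36252272 on the + strand (GRCm38, 11 merged exons of 3884 bases). Its levels in ft/ft replicates 1 to 4 were 114, 94.9, 82.6 and 98 CPM, and in ft/ftMyD88-/- they were 32.7, 42.9, 51.2 and 41.6 CPM. The lowest ft/ft library was above the highest ft/ftMyD88-/- library. The means were 97.5 ± 13 (SD, n = 4) and 42.1 ± 7.56, a 2.31-fold lower level in ft/ftMyD88-/- (log2 fold change -1.21 ± 0.135 SE, edgeR adjusted p = 0.000167). In this bulk RNA, fewer cells of a type and less RNA per cell cannot be told apart. Its exons overlap those of the opposite-strand gene model Gm43621 over 3.8% of their length. That model was not among the genes counted. Since the library type is given differently by the labels and the methods, it is uncertain whether reads of that stretch were kept for *Ptgs1*.

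*Ptgs2*, the inducible cyclooxygenase, lies at chr1:150100031-150108227 on the + strand (11 merged exons of 4580 bases). Its counts were 56, 63, 30 and 40 in ft/ft against 132, 331, 108 and 141 in ft/ftMyD88-/-, which were 2.4, 2.29, 1.67 and 1.53 CPM and 5.78, 12.2, 3.67 and 8.6 CPM. Every ft/ftMyD88-/- library was above every ft/ft library, but within ft/ftMyD88-/- the libraries spread widely, with replicate 2 highest and replicate 3 lowest. The means of 1.97 ± 0.435 (SD, n = 4) and 7.55 ± 3.67 CPM differed 3.83-fold (log2 fold change 1.93 ± 0.345 SE, edgeR adjusted p = 0.00335).

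The cyclooxygenases therefore moved in opposite directions while remaining far apart in level. Scaled to exonic length, *Ptgs1* was at 25.1 ± 3.35 CPM per kb of exon in ft/ft and 10.8 ± 1.95 in ft/ftMyD88-/-, and *Ptgs2* at 0.431 ± 0.0949 and 1.65 ± 0.802. The sum of both was lower in ft/ftMyD88-/-, at 12.5 ± 1.97 against 25.5 ± 3.41 CPM per kb (exact permutation p = 0.0286, 2-sided, which is the smallest value possible with 4 against 4 libraries). *Ptgs2* made up 1.75, 2.01, 1.69 and 1.31% of that sum in ft/ft and 13, 19.4, 5.74 and 14.9% in ft/ftMyD88-/- (exact permutation p = 0.0286). Each gene separated the groups by itself, in opposite directions, so separation of the share had to follow and is no further test. The sum is mostly *Ptgs1* and repeats its change. *Ptgs1* was thus the more abundant cyclooxygenase mRNA in every library of both groups.

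**Figure D2:**
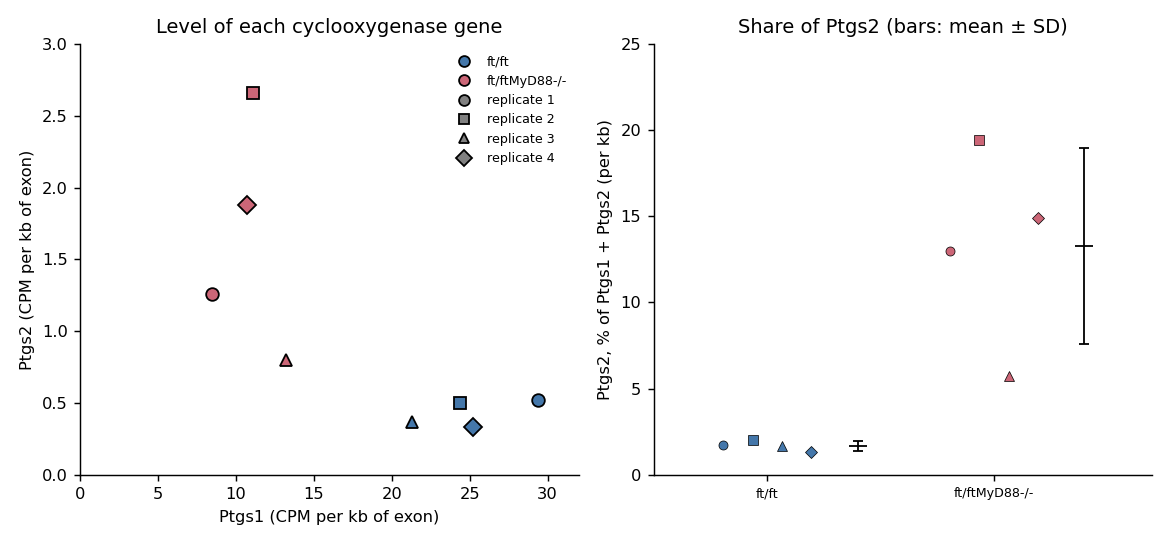
Left, level of *Ptgs2* against level of *Ptgs1* in each library, both in CPM per kb of exon on linear axes. Right, *Ptgs2* as a percentage of the summed level, with bars for the mean ± SD: ft/ft libraries (blue) sit between 1.31 and 2.01% and ft/ftMyD88-/- libraries (red) between 5.74 and 19.4%.

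*Ptges* encodes microsomal prostaglandin E synthase-1, which acts after the cyclooxygenases and makes prostaglandin E2. It lies at chr2:30889471-30929863 on the - strand. Its levels were 60.3, 67.8, 60.2 and 62.8 CPM in ft/ft and 70.4, 80.8, 67.3 and 93.5 CPM in ft/ftMyD88-/-. The groups overlapped only by ft/ft replicate 2 and ft/ftMyD88-/- replicate 3. The means were 62.8 ± 3.53 and 78.0 ± 11.8 CPM (SD, n = 4), and the log2 fold change of 0.31 (standard error 0.106) missed the threshold narrowly, with an edgeR adjusted p of 0.0523. It passed under other settings, such as RLE size factors (edgeR adjusted p = 0.0464) and DESeq2 (0.0324), and over all settings its adjusted p ranged from 0.00473 to 0.13.

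*Ptgds*, the lipocalin-type prostaglandin D synthase (chr2:25466709-25470046, - strand), had 14.0, 10.3, 13.5 and 8.13 CPM in ft/ft and 14.9, 7.83, 8.4 and 11.6 in ft/ftMyD88-/-. The groups covered nearly the same range. The log2 fold change of -0.1 ± 0.229 (SE) had an edgeR adjusted p of 0.779, and its sign turned when single libraries were left out. The ratio of *Ptges* to *Ptgds* within a library was 0.42 higher on the log2 scale in ft/ftMyD88-/- (standard error 0.315), with overlapping libraries (exact permutation p = 0.171, adjusted p = 0.206 over 6 ratios). The ratio of *Ptges* to *Ptgs2*, in contrast, was lower by 2.85-fold in ft/ftMyD88-/-, at a log2 ratio of 3.49 ± 0.6 against 5.0 ± 0.307 (exact permutation p = 0.0286, adjusted p = 0.0429).

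*Alox5* encodes 5-lipoxygenase, the first enzyme of leukotriene synthesis, and lies at chr6:116410077-116461178 on the - strand. It had 13.3, 18.8, 14.2 and 17.4 CPM in ft/ft and 12.5, 18.2, 13 and 12 CPM in ft/ftMyD88-/-. Libraries of the groups overlapped, and ft/ftMyD88-/- replicate 2 stood above the other libraries of its group. The log2 fold change of -0.19 ± 0.158 (SE) had an edgeR adjusted p of 0.407, and with single libraries left out it lay between -0.35 and -0.1 without passing.

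*Alox5ap* encodes the membrane protein FLAP, which presents arachidonic acid to 5-lipoxygenase, and lies at chr5:149264767-149288153 on the + strand. Its counts were 62, 61, 44 and 78 in ft/ft against 65, 142, 106 and 58 in ft/ftMyD88-/-, or 2.66, 2.22, 2.45 and 2.99 CPM against 2.85, 5.22, 3.61 and 3.54 CPM. Only ft/ftMyD88-/- replicate 1 lay within the ft/ft range. The log2 fold change of 0.56 ± 0.208 (SE) had an edgeR adjusted p of 0.0688, and with single libraries left out it ran from 0.37 (without ft/ftMyD88-/- replicate 2, adjusted p = 0.208) to 0.69 (without replicate 1 of that group, adjusted p = 0.0358). Of those 8 fits 1 passed, as did DESeq2 (adjusted p = 0.0426) and scaling by library size alone (edgeR adjusted p = 0.0215). An antisense gene model, Gm19719, covers 13.3% of its exons.

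Set against *Alox5* in the same library, *Alox5ap* separated the groups. The log2 ratio of *Alox5ap* to *Alox5* was -2.32, -3.08, -2.52 and -2.53 in ft/ft and -2.13, -1.8, -1.84 and -1.75 in ft/ftMyD88-/-, with no overlap. The difference of 0.73 (standard error 0.184, 1.66-fold) had an exact permutation p of 0.0286 and an adjusted p of 0.0429 over the 6 ratios. The highest ft/ft library, replicate 1, and the lowest ft/ftMyD88-/- library, also replicate 1, lay close together.

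*Ltc4s*, leukotriene C4 synthase (chr11:50236461-50238616, - strand), was near the limit of the counts. Only 4, 3, 3 and 6 counts were found in ft/ft and 7, 4, 2 and 4 in ft/ftMyD88-/-, and 3 counts are worth 0.102 to 0.183 CPM. No difference was detectable at this depth (log2 fold change 0.11 ± 0.572 SE, edgeR adjusted p = 0.91). Of its exons, 26.4% overlap the antisense gene model Gm26542. Its ratio to *Alox5* gave a log2 difference of 0.22 with a standard error of 0.56 (exact permutation p = 0.657, adjusted p = 0.657).

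*Alox12*, the platelet-type 12-lipoxygenase that is also made in epidermis, lies at chr11:70241457-70255353 on the - strand (14 merged exons of 4085 bases). Its levels were 35.2, 46.9, 31.5 and 32 CPM in ft/ft and 25.5, 21.2, 18.2 and 19.2 CPM in ft/ftMyD88-/-. All 4 ft/ft libraries were above all 4 ft/ftMyD88-/- libraries. With means of 36.4 ± 7.21 and 21 ± 3.24 CPM (SD, n = 4), it was 1.73-fold lower in ft/ftMyD88-/- (log2 fold change -0.79 ± 0.146 SE, edgeR adjusted p = 0.00266). The 5 platelet markers (*Pf4*, *Ppbp*, *Itga2b*, *Gp9* and *Gp1ba*) included none that passed the test, and they summed to 18.2 to 22.2 CPM in ft/ft and 22.7 to 129 CPM in ft/ftMyD88-/-. The upper end of that range came mostly from *Ppbp*, at 92.5 CPM in ft/ftMyD88-/- replicate 2 and 19.9 CPM in replicate 1.

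*Alox8*, the mouse enzyme that adds oxygen to carbon 8 of arachidonic acid and is known in irritated mouse skin, lies at chr11:69183932-69197843 on the - strand. It had 5.32, 31.1, 2.84 and 4.87 CPM in ft/ft and 56.4, 14.0, 11.4 and 29.1 CPM in ft/ftMyD88-/-. All ft/ftMyD88-/- libraries were above 3 of the ft/ft libraries, and ft/ft replicate 2 was above 3 of the ft/ftMyD88-/- libraries. The log2 fold change of 1.31 ± 0.938 (SE) had an edgeR adjusted p of 0.371. Without ft/ft replicate 2 it was 2.66 (edgeR adjusted p = 0.0543), and over all libraries left out in turn it ran from 0.69 to 2.66.

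The ft/ft library with high *Alox8* also stood apart in some genes of hyperproliferative epidermis. There *Krt16* was at 253 CPM against 46.9 to 67.2 in the other ft/ft libraries, and *Sprr1b* at 32.1 against 7.2 to 10.2. *Krt6a* (479 against 288 to 374) and *Krt6b* (602 against 271 to 422) differed less, and *Krt17*, at 2240 CPM, lay among the other ft/ft libraries. The 5 hyperproliferative markers summed to 2790 to 3610 CPM in ft/ft and 3280 to 5630 in ft/ftMyD88-/-, with *Sprr1b* the 1 of 5 that passed the test, as higher in ft/ftMyD88-/-. *Krt16* narrowly missed the threshold (log2 fold change 2.58, edgeR adjusted p = 0.053). Its groups did not overlap, at 46.9 to 253 CPM in ft/ft and 357 to 1070 in ft/ftMyD88-/-, while those of *Krt6a*, *Krt6b* and *Krt17* did. Across the ft/ftMyD88-/- libraries, however, *Krt16* was highest in replicate 4 (1070 CPM) and *Alox8* in replicate 1. Their part in the *Alox8* values was not tested.

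*Alox15*, the 12/15-lipoxygenase of macrophages and eosinophils, lies at chr11:70344152-70352031 on the - strand. It had 6.99, 7.42, 7.2 and 3.72 CPM in ft/ft and 7.01, 11.8, 9.08 and 14.0 CPM in ft/ftMyD88-/-. ft/ftMyD88-/- replicate 1 lay within the ft/ft range and the other 3 libraries of its group above it, while ft/ft replicate 4 was below all others. The log2 fold change of 0.73 ± 0.252 (SE) had an edgeR adjusted p of 0.0601, and with single libraries left out it ran from 0.54 (without ft/ft replicate 4, adjusted p = 0.109) to 0.88 (without ft/ftMyD88-/- replicate 1, adjusted p = 0.0221). Only the latter of those 8 fits passed, and without ft/ftMyD88-/- replicate 4 the value was 0.57 (adjusted p = 0.152). *Alox15* also passed with DESeq2 (adjusted p = 0.0168) and with scaling by library size alone (edgeR adjusted p = 0.0193). Of 6 macrophage markers, *C1qa* passed the test as higher (log2 fold change 0.51, edgeR adjusted p = 0.0158), and the list summed to 278 to 420 CPM in ft/ft and 336 to 518 in ft/ftMyD88-/-. Of 4 eosinophil markers tested, *Siglecf* was higher and *Ear2* lower, the list summed to 8.0 to 11.9 and 3.11 to 8.54 CPM, and the granule gene *Prg2* was at no more than 0.39 CPM in any library. Their part in the *Alox15* values was not tested.

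The lipoxygenase genes of chromosome 11 were also read by position. *Aloxe3*, *Alox12b* and *Alox8* lie within 71948 bases, and *Alox12*, *Alox12e* and *Alox15* within another 110575 bases, with 1043613 bases between the clusters. *Aloxe3* and *Alox12b* make the epidermal lipoxygenases of the water barrier, and *Alox12e* encodes the epidermal 12-lipoxygenase of the mouse. In each cluster 2 genes were lower in ft/ftMyD88-/-, with log2 fold changes of -1.0 (*Aloxe3*), -0.58 (*Alox12b*), -0.79 (*Alox12*) and -0.69 (*Alox12e*), all past the test. The remaining gene of each cluster, *Alox8* or *Alox15*, had a log2 fold change above 0 that did not pass. Over all genes tested, 12.3% were lower by the same test, and no test of the clusters as a whole was made. *Aloxe3*, *Alox12b* and *Alox12e* come from the lists of other pathway genes given below. Those lists, like the members, were chosen with earlier results of these data known.

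Of the 7 lipoxygenase genes measured, *Alox12e* had the highest level per exonic length, at 160 ± 19.7 CPM per kb in ft/ft and 99.0 ± 12.5 in ft/ftMyD88-/- (519, 431, 467 and 387 CPM against 260, 248, 328 and 283 CPM; edgeR adjusted p = 0.00164). *Alox12b* followed at 32.8 ± 5.26 and 22.0 ± 2.84 CPM per kb (edgeR adjusted p = 0.00609). *Alox12*, at 8.91 ± 1.77 and 5.15 ± 0.794 CPM per kb, was next in ft/ft, ahead of *Aloxe3* at 6.11 ± 0.839 and 3.06 ± 0.256 (edgeR adjusted p = 0.000172). That order depends on the division by length, since in CPM the ft/ft means were 36.4 ± 7.21 (*Alox12*) and 39.1 ± 5.36 (*Aloxe3*). *Aloxe3* fell by more than *Alox12b*: the log2 ratio of *Alox12b* to *Aloxe3* was 1.02 ± 0.139 in ft/ft and 1.44 ± 0.0644 in ft/ftMyD88-/-, with no overlap (exact permutation p = 0.0286, adjusted p = 0.0429).

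Some but not all markers of keratinocytes, fibroblasts, sebocytes and endothelium, and all those of muscle, were lower in the same libraries as *Ptgs1* and *Alox12*. Of 5 basal keratinocyte markers 4 were lower in ft/ftMyD88-/-, and the list summed to 13600 to 16700 CPM in ft/ft and 9490 to 11700 CPM in ft/ftMyD88-/-. Of 5 differentiated keratinocyte markers 3 were lower (*Lor*, *Sbsn* and *Krt10*), with sums of 16300 to 21500 CPM in ft/ft and 11500 to 14300 CPM in ft/ftMyD88-/-. Of 9 sebocyte markers 5 were lower (*Mgst1*, *Scd3*, *Awat1*, *Awat2* and *Far2*), and the sums of 7740 to 8910 and 6060 to 7870 CPM overlapped. Of 5 fibroblast markers 3 were lower (the collagen genes *Col1a1*, *Col1a2* and *Col3a1*), with sums of 13800 to 28700 and 6800 to 10100 CPM. Of 5 endothelial markers 2 were lower (*Vwf* and *Kdr*), with sums of 213 to 255 and 158 to 206 CPM. All 5 skeletal muscle markers were lower, with a median log2 fold change of -1.03. The part of these lists in the *Ptgs1* and *Alox12* values was not tested.

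Leukocyte markers were read beside *Ptgs2*, *Alox5* and *Alox5ap*. None of 6 mast cell markers passed the test, with sums of 110 to 140 CPM in ft/ft and 104 to 173 CPM in ft/ftMyD88-/-. Of 4 neutrophil markers tested, *Csf3r* was higher (log2 fold change 1.42, edgeR adjusted p = 0.0476), the list summed to 14.1 to 27.7 and 19.5 to 40.7 CPM, the granule gene *Camp* reached no more than 0.263 CPM, and *Ly6g* and *Ngp* could not be tested. The part of these lists in the members' values was not tested.

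By exonic length the 10 genes spanned a wide range. In ft/ft, *Ptgs1* came first at 25.1 ± 3.35 CPM per kb of exon and *Ptges* second at 16 ± 0.897, with no overlap between them or with the genes after them. *Alox12* (8.91 ± 1.77) and *Ptgds* (6.96 ± 1.68) overlapped, as did each neighbouring pair from *Alox5* (3.88 ± 0.635) through *Alox8* (3.1 ± 3.77) and *Alox15* (2.58 ± 0.713) to *Alox5ap* (1.82 ± 0.23). *Ptgs2* (0.431 ± 0.0949) and *Ltc4s* (0.167 ± 0.0487) were lowest and did not overlap. In ft/ftMyD88-/- the first place was taken by *Ptges*, at 19.8 ± 3.01 CPM per kb, and *Ptgs1* was second at 10.8 ± 1.95, again with no overlap. From *Ptgs1* down to *Ptgs2* (1.65 ± 0.802) every neighbouring pair overlapped in ft/ftMyD88-/-, and *Ltc4s* was lowest at 0.189 ± 0.104. Per exonic length, the most abundant mRNA of the set was therefore *Ptgs1* in all 4 ft/ft libraries and *Ptges* in all 4 ft/ftMyD88-/- libraries.

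**Figure D3:**
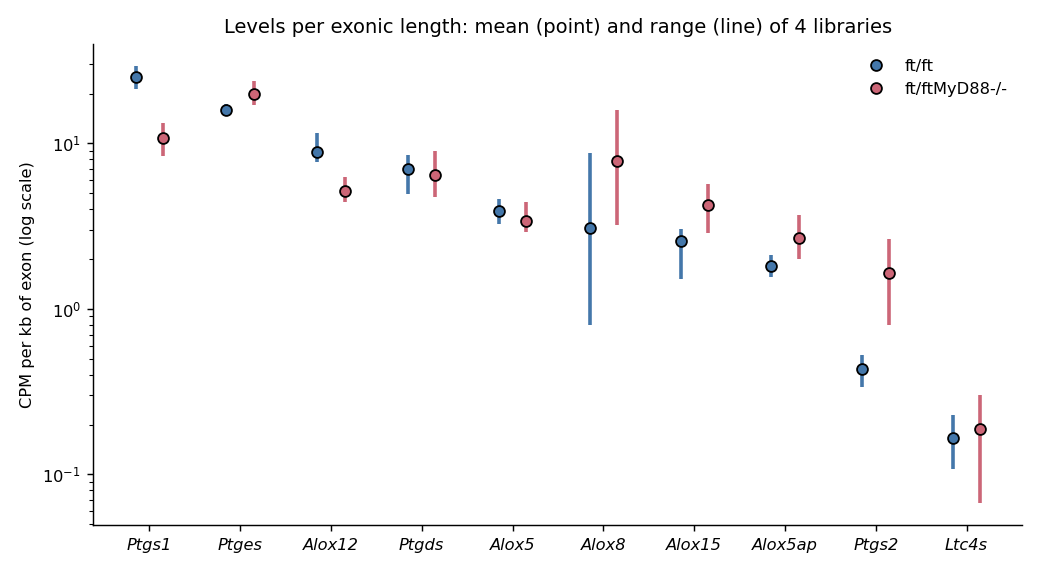
Level of each gene in CPM per kb of exon on a log axis, ordered by the ft/ft mean, with a point for the mean and a line from the lowest to the highest of 4 libraries (blue ft/ft, red ft/ftMyD88-/-). *Ptgs1* leads in ft/ft and *Ptges* in ft/ftMyD88-/-, and the *Alox8* lines are the longest.

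Ratios between genes of 1 library do not depend on how libraries are scaled. Of the 6 ratios examined, 4 separated the groups with no overlap, each with an exact permutation p of 0.0286 and an adjusted p of 0.0429. That exact p is the smallest possible with 4 against 4 libraries. The share of all gene pairs that separate was not worked out, and 26.7% of single genes tested did not overlap. *Ptgs2* to *Ptgs1* and *Ptges* to *Ptgs2* share *Ptgs2*, which separated the groups by itself, so they are not separate results. The widest difference was in *Ptgs2* to *Ptgs1*, at log2 values of -5.56, -5.36, -5.6 and -5.98 in ft/ft and -2.5, -1.82, -3.79 and -2.27 in ft/ftMyD88-/-. The difference of 3.03 (standard error 0.443) was an 8.18-fold change in the ratio. A ratio carries the changes of both genes, and *Ptgs2* to *Ptgs1* repeats the separate changes given above.

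**Figure D4:**
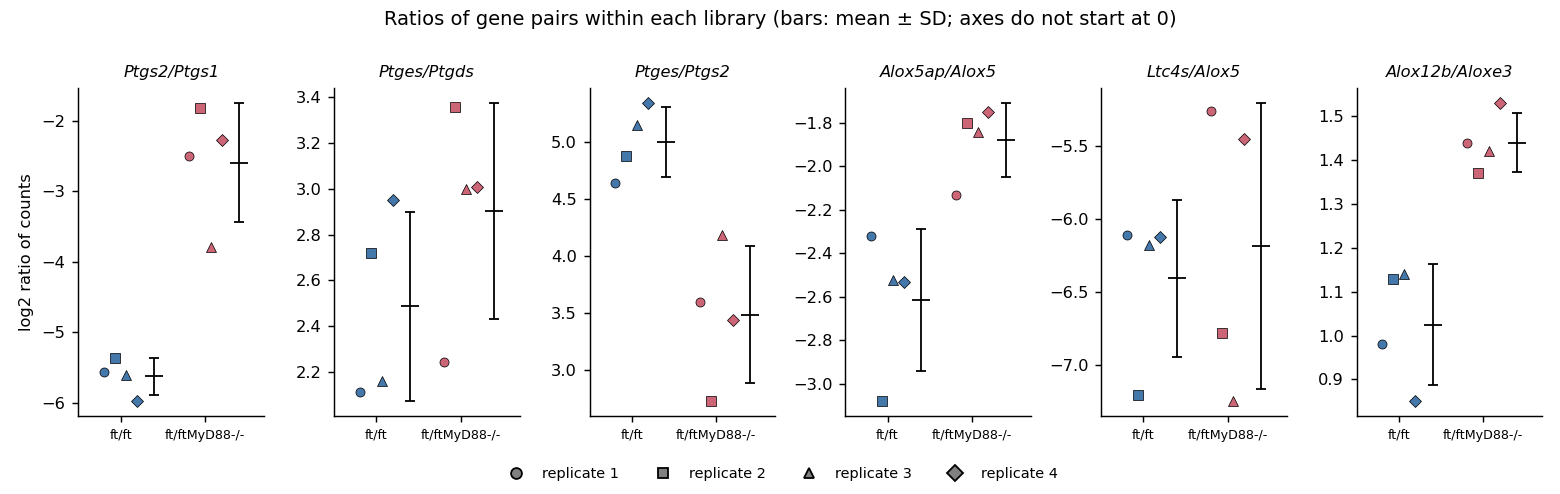
Log2 ratio of counts of 2 genes in each library (0.5 added to each count) for the 6 ratios examined, with blue for ft/ft, red for ft/ftMyD88-/- and bars for the mean ± SD; the axes do not start at 0. The groups overlap for *Ptges* to *Ptgds* and *Ltc4s* to *Alox5* and are apart for the other 4.

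The rest of the pathway was read from lists of 41 genes, of which 38 were in the table and tested (*Dpep2*, *Oxgr1* and *Gpr31b* were not analysed here). Of the 38, 7 were higher in ft/ftMyD88-/- and 8 lower, with a median log2 fold change of 0.2. These counts became 14 and 6 with scaling by library size alone, and without ft/ft replicate 4 there were 4 higher. In the fit used throughout, that is 15 of 38 against 23.3% of all genes tested, and no test of the lists as a whole was made. *Tbxas1*, *Cbr3*, *Abcc4*, *Ggt5*, *Dpep1*, *Mgst2*, *Lta4h*, *Hpgds*, *Hpgd* and *Ptger3* are named below after their values were seen.

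Of 10 other genes of prostanoid synthesis, 3 were higher, 2 were lower and 5 did not pass. *Ptges3*, the cytosolic prostaglandin E synthase and a cochaperone of Hsp90, rose from 107 ± 11.8 to 151 ± 19.8 CPM (log2 fold change 0.50, edgeR adjusted p = 0.00718). *Tbxas1*, thromboxane synthase, and the carbonyl reductase *Cbr3* both rose with a log2 fold change of 0.59 (edgeR adjusted p = 0.0464 and 0.00542). *Cbr2*, another carbonyl reductase, fell from 718 ± 185 to 369 ± 46.8 CPM (log2 fold change -0.96, edgeR adjusted p = 0.00318). *Akr1b3*, an aldose reductase able to make prostaglandin F, fell from 84.7 ± 4.05 to 66.7 ± 3.75 CPM (-0.34, edgeR adjusted p = 0.00852), a call lost with scaling by library size alone (-0.17, adjusted p = 0.115). *Hpgds*, the haematopoietic prostaglandin D synthase, had 13.4 ± 1.88 and 17.6 ± 2.81 CPM and did not pass (edgeR adjusted p = 0.0659).

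Of 5 genes of prostanoid transport and breakdown, 2 were lower and none higher. *Ptgr1*, a reductase that inactivates prostaglandins and leukotriene B4, fell from 244 ± 25.3 to 156 ± 17.4 CPM (log2 fold change -0.64, edgeR adjusted p = 0.00139). *Abcc4*, an exporter of prostaglandins, fell from 78.4 ± 10.4 to 49.5 ± 4.82 CPM (-0.66, edgeR adjusted p = 0.00137). *Hpgd*, which oxidises prostaglandin E2, had 26.4 ± 2.28 and 32.9 ± 4.13 CPM with no overlap and an edgeR adjusted p of 0.0523.

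Of 9 other lipoxygenase and leukotriene genes, 3 were higher and 4 lower. The lower ones were *Aloxe3*, *Alox12b*, *Alox12e* and *Lta4h*, the hydrolase that makes leukotriene B4 (58.6 ± 3.74 to 48.0 ± 2.09 CPM, log2 fold change -0.29, edgeR adjusted p = 0.0225). The higher ones were *Ggt5* and *Dpep1*, which trim leukotriene C4 and D4 in turn, and *Mgst2*, a microsomal leukotriene C4 synthase. Their log2 fold changes were 0.65, 0.68 and 0.67 (edgeR adjusted p = 0.0488, 0.00186 and 0.0201).

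None of the 9 prostanoid receptors passed the test, and libraries of the groups overlapped for each of them. *Ptger3*, a receptor of prostaglandin E2, was at 18.1 to 37.7 CPM in ft/ft and 12.5 to 32 in ft/ftMyD88-/-. Of 5 leukotriene and lipoxin receptors tested, 1 passed. *Fpr2*, a receptor for lipoxin A4 and formylated peptides on myeloid cells, was counted 0, 13, 2 and 3 times in ft/ft and 18, 37, 21 and 15 times in ft/ftMyD88-/-, or 0.175 ± 0.206 and 0.944 ± 0.289 CPM (SD, n = 4). The groups did not overlap (log2 fold change 2.32 ± 0.598 SE, edgeR adjusted p = 0.0159), and without ft/ft replicate 4 the value was 2.14 and missed the threshold (adjusted p = 0.0517). Without ft/ft replicate 2 it was 3.58 (adjusted p = 0.00259), with the remaining ft/ft libraries at or under 3 counts, so the size of the fold is uncertain.

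**Figure D5:**
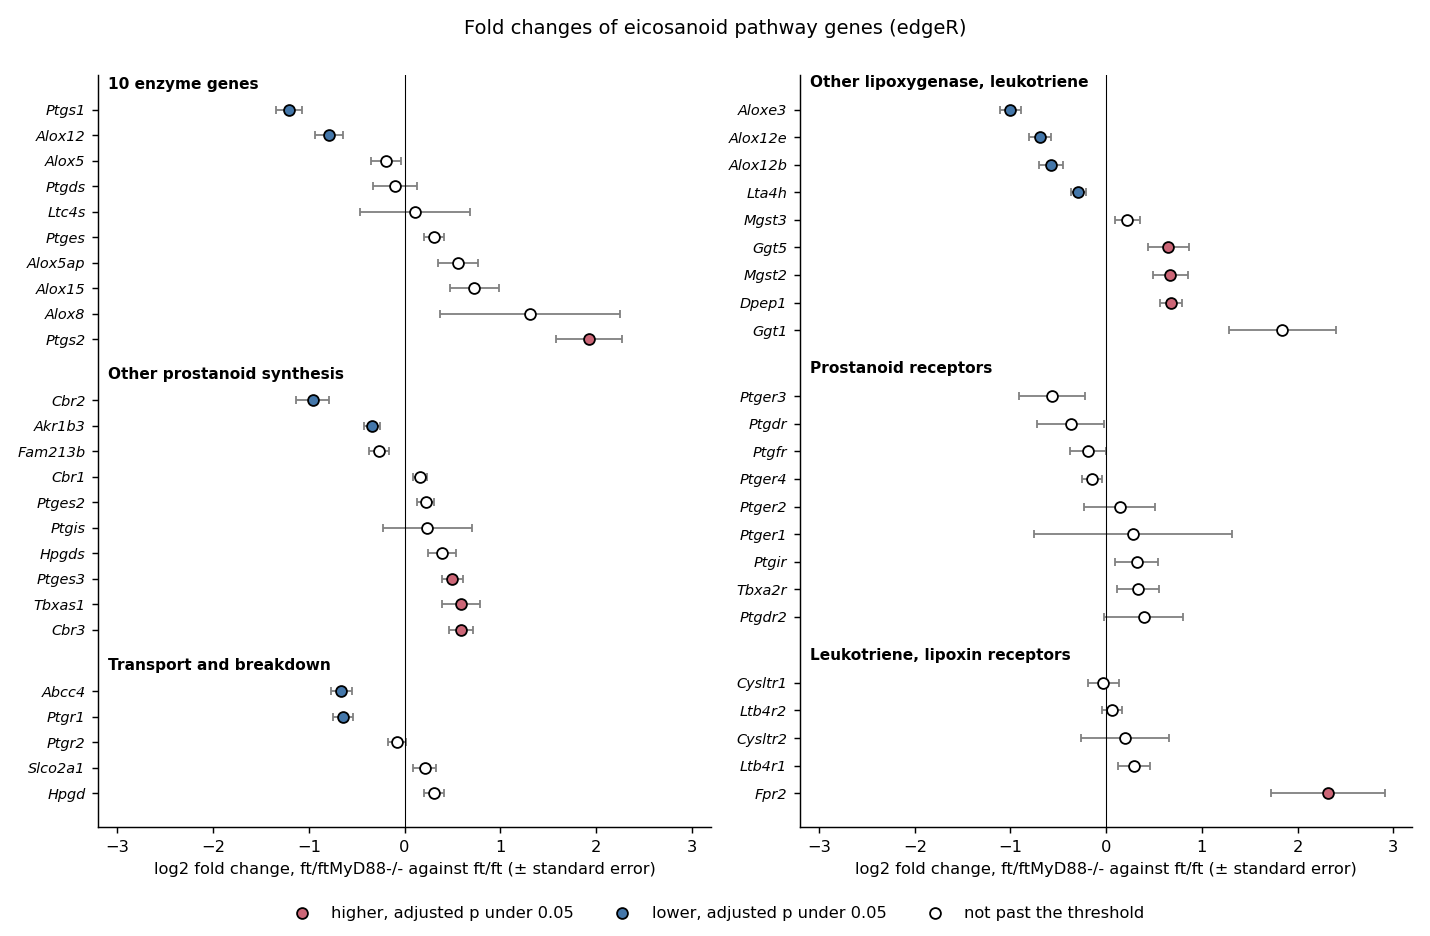
Log2 fold change of ft/ftMyD88-/- over ft/ft for the 10 enzyme genes and the 38 other genes of the pathway lists, with lines for ± 1 standard error derived from the edgeR test statistic, red for higher and blue for lower at an adjusted p under 0.05 and white for the rest. Within most lists, genes lie on both sides of 0; the 9 prostanoid receptors are all white.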

How the data were processed

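Counts of 8 RNA-seq libraries, 4 per group by the sample titles, were analysed. The authors deposited raw counts per gene, without normalization, from single-end reads of 50 cycles. Per the study's methods, polyA-selected reads were aligned to GRCm38.p6 with HISAT and TopHat2. The methods name HTSeq at default settings for finding differentially expressed genes. Counting by strand is a default of that tool and is not stated in the methods. The labels of these libraries instead name total RNA, a protocol for fixed tissue and, in the submitters' processing notes, Cell Ranger. Tool versions and the annotation release are not given in the sources used here.

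Of 21247 genes, 32 had no count, and 20454 reached a summed count of at least 10 and entered the test, run with edgeR 4.0.16 under R 4.3.3 (TMM factors of 0.922 to 1.087, glmQLFit with robust estimation, glmQLFTest, two-sided, no covariate, Benjamini-Hochberg adjustment, adjusted p under 0.05). The biological coefficient of variation was 0.182. Standard errors of log2 fold changes were derived from the test, as the size of the change divided by the square root of its F statistic. Positions and exonic lengths came from GENCODE M21, GRCm38, in which 16382 names and all 10 members matched 1 gene. Ratios used counts plus 0.5, with two-sided exact permutation tests adjusted over 6 ratios. A total of 3 counts was taken as the floor, 0.102 to 0.183 CPM, which covers counting error only. Total counts did not separate the groups (exact permutation p = 0.457). No 2 libraries of a group agreed within counting noise (chi-square per degree of freedom at least 15.1).

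The members and lists were chosen with earlier results of these data known. Named were all members, pathway genes past the test whose log2 fold change was at least 1 in size, the 6 most abundant of the others that passed, and both genes of each ratio. Alternatives were RLE factors, library size alone, filterByExpr, no filter, limma voom (3.58.1), DESeq2 (1.42.0), a replicate block, each library left out, and stricter thresholds. On simulated counts of ft/ftMyD88-/- against ft/ft (20153 genes tested), 80 of 100 genes changed 2-fold and 98 of 100 changed 4-fold were called, with 11 of 19953 unchanged genes. The changed genes were drawn from those with a mean of at least 1 CPM, so genes as low as *Ltc4s* and *Fpr2* are not covered. Their share was also far smaller than the 23.3% of genes called in the data.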

Additional observations from a re-analysis of the deposited data

Results flagged for a closer look

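In groups of 4 libraries, a value was singled out when its gap to the nearest other library exceeded Dixon's critical share of the group's range for 4 samples. Over 48 groups tested 4 values met this, and chance alone gives about 1 in 20. *Alox8* in ft/ft replicate 2 was 31.1 CPM, with the other ft/ft libraries at 2.84 to 5.32. *Alox5* in ft/ftMyD88-/- replicate 2 was 18.2 CPM, with the others of its group at 12 to 13. *Alox15* in ft/ft replicate 4 was 3.72 CPM, with the others at 6.99 to 7.42. The log2 ratio of *Ltc4s* to *Alox5* in ft/ft replicate 2 was -7.21, with the others at -6.18 to -6.11, and rests on 3 counts of *Ltc4s*.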

How the results depend on the processing

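*Ptgs1*, *Ptgs2* and *Alox12* kept their direction and passed the test in all 15 alternatives run on single genes, with log2 fold changes of -1.30 to -1.03, 1.59 to 2.18 and -0.89 to -0.62. The count of members higher was 2 with RLE factors and with filterByExpr (*Ptges* added), 4 with library size alone and with DESeq2 (*Ptges*, *Alox5ap* and *Alox15* added), and 1 to 4 with 1 library left out. The count of members lower was 1 where a log2 fold change of at least 1 in size was also required and 2 with any library left out. Scaling by library size alone moved the median log2 fold change of all genes to 0.19. It gave 4638 genes higher, 1326 lower and 14 other eicosanoid genes higher. Requiring that size left 752 genes higher, 520 lower, and 1 and 0 other eicosanoid genes. An adjusted p under 0.01 left 951 higher, 1350 lower and 3 other eicosanoid genes higher. Leaving out libraries gave 1464 (without ft/ft replicate 4) to 2260 genes higher, 1851 to 2408 lower, and 4 (without ft/ft replicate 4) to 7 other eicosanoid genes higher. *Alox5* was -0.02 with library size alone. *Ptgds* ran from -0.31 to 0.03 with libraries left out and reversed to 0.07 with library size alone, 0.01 without ft/ft replicate 1, 0.03 without ft/ftMyD88-/- replicate 2 and 0.01 without replicate 3. *Ltc4s* ran from -0.24 to 0.44 and reversed to -0.05 with limma voom, -0.07 without ft/ft replicate 2, -0.24 without ft/ftMyD88-/- replicate 1 and -0.0017 without replicate 4, and filterByExpr removed it. With 4 against 3 libraries no ratio can pass (smallest exact permutation p 0.0571). The log2 differences were then 2.77 to 3.43 (*Ptgs2* to *Ptgs1*), -1.74 to -1.26 (*Ptges* to *Ptgs2*), 0.58 to 0.83 (*Alox5ap* to *Alox5*), 0.36 to 0.46 (*Alox12b* to *Aloxe3*), 0.27 to 0.64 (*Ptges* to *Ptgds*) and -0.09 to 0.58 (*Ltc4s* to *Alox5*, with -0.04 without ft/ft replicate 2, -0.09 and -0.02 without ft/ftMyD88-/- replicates 1 and 4). The cause of these changes was not tested.

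Same-numbered libraries did not deviate together (correlations -0.0789, 0.0211, -0.005 and -0.0106, none best with its own number), so the numbers do not pair them. With the replicate block, 1895 genes were higher and 2144 lower, with 1 member higher and 2 lower. The mean differences of the ratios are equal with and without pairs by arithmetic (3.03, -1.51, 0.73 and 0.42), and 4 pairs cannot go below an exact p of 0.125 (adjusted p = 0.15). Depth limited *Ltc4s*, at 2 to 7 counts per library.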
